A study of Mus musculus with 18 samples.

Results

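Neurotrophins and their receptors, and the neuropeptide and secreted-peptide genes that dentate granule cells are known for, were examined in the ventral dentate gyrus of WT, F1 and F2 males. The 10 genes were chosen by symbol: the neurotrophins Bdnf and Ntf3, the receptors Ntrk2 and Ntrk3, the opioid precursors Penk and Pdyn, the granins Vgf, Scg2 and Chgb, and the pentraxin Nptx2. All 10 were found among the 34620 gene symbols listed, and all 10 were among the 17421 genes with enough counts to be tested. The choice used no measured value, but it was made with earlier results of these libraries known.

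All animals were male Swiss Webster mice, adults of 8 to 12 weeks, and every profiled male was itself genetically wild type. WT males had a WT mother and a WT grandmother and came from a separate lineage bred in parallel. F1 males had a mother and a grandmother labelled 5HT1A-/+, heterozygous for the serotonin 1A receptor deletion. By the paper's methods they came from crosses of heterozygous parents and had heterozygous and knockout littermates. F2 males had a WT mother, an F1 female, a WT father and a 5HT1A-/+ grandmother. Polyadenylated RNA of the ventral dentate gyrus, microdissected from frozen sections, was sequenced in 2 libraries per group. How many animals went into each library is not stated, so the p-values measure the spread between these libraries, which may be technical in part. The lineage and the maternal history of a group cannot be told apart in this design, nor, in F1, the genotype of the father and the littermates.

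As background, neurotrophins are secreted growth factors that act through the Trk receptor tyrosine kinases: BDNF binds TrkB, the product of Ntrk2, and NT-3 binds mainly TrkC, the product of Ntrk3. Granule cells store BDNF, opioid peptides and granins in large dense-core vesicles and release them along the mossy fibres onto CA3. Several of these genes, among them Bdnf, Vgf, Scg2, Penk and Nptx2, are known to be transcribed more strongly after neuronal activity.

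Between 26358165 and 33727936 reads per library fell on genes. Levels are given as CPM, counts scaled to library size with TMM factors, and as CPM per kb of merged exon where genes are compared with each other. Groups were compared with edgeR's exact test, adjusted by Benjamini-Hochberg over all tested genes, and a gene was called at an adjusted p (q) under 0.01. The dissected tissue held granule cells: the marker Prox1 averaged 273 CPM in WT, 255 in F1 and 341 in F2. The 7 granule cell markers, Prox1 among them, summed to 2246 to 2563 CPM over the 6 libraries. Slc17a7, which is not specific to granule cells among glutamatergic neurons, alone averaged 1423 CPM over the 6 libraries. This 1 gene made up most of the sum, so the sum is not a measure of granule cells alone. By edgeR's exact test 0 of the 7 were called in any comparison. At an unadjusted p under 0.05 that test gave 2 of 7 in F1 (32.5% of all tested genes) and 4 in F2 (32.4%). Between F2 and F1 it gave 5 of 7 (8.64%). The median log2 fold change of the 7 was -0.10 in F1, 0.26 in F2 and 0.30 for F2 against F1. The tissue also held other cells. The 7 astrocyte markers summed to 2277 to 2467 CPM in WT, 2772 to 3387 in F1 and 3153 to 3776 in F2, and the 7 oligodendrocyte markers to 1065 to 1945, 2167 to 2873 and 1480 to 2803. The 6 microglial markers summed to 108 to 109, 128 to 149 and 143 to 165 CPM. None of these markers was at 0 in any library. In such tissue fewer cells of a type and less RNA per cell cannot be told apart.

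Per kb of exon, Chgb was the most abundant of the 10 transcripts, with a mean of 209.96 CPM per kb over the 6 libraries, followed by Scg2 at 113 and Vgf at 41.7. Ntrk2 came next at 21.7, and Ntf3 (13.7), Pdyn (13.6), Bdnf (12.2), Ntrk3 (10.5), Penk (9.36) and Nptx2 (5.53) followed. The granins thus headed the order. The ranges of Scg2 and Vgf, of Vgf and Ntrk2, and of Ntrk2 and Ntf3 did not overlap over the 6 libraries, whereas all other neighbours in this order overlapped. Chgb exceeded Scg2 in 5 of 6 libraries and fell below it in F2 library 1, where the ratio per kb was 0.934. Ntrk2 stood above Ntrk3 on this scale in every library, although its merged exons span 15094 bases and pool full-length with truncated receptor transcripts.

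**Figure D1:**
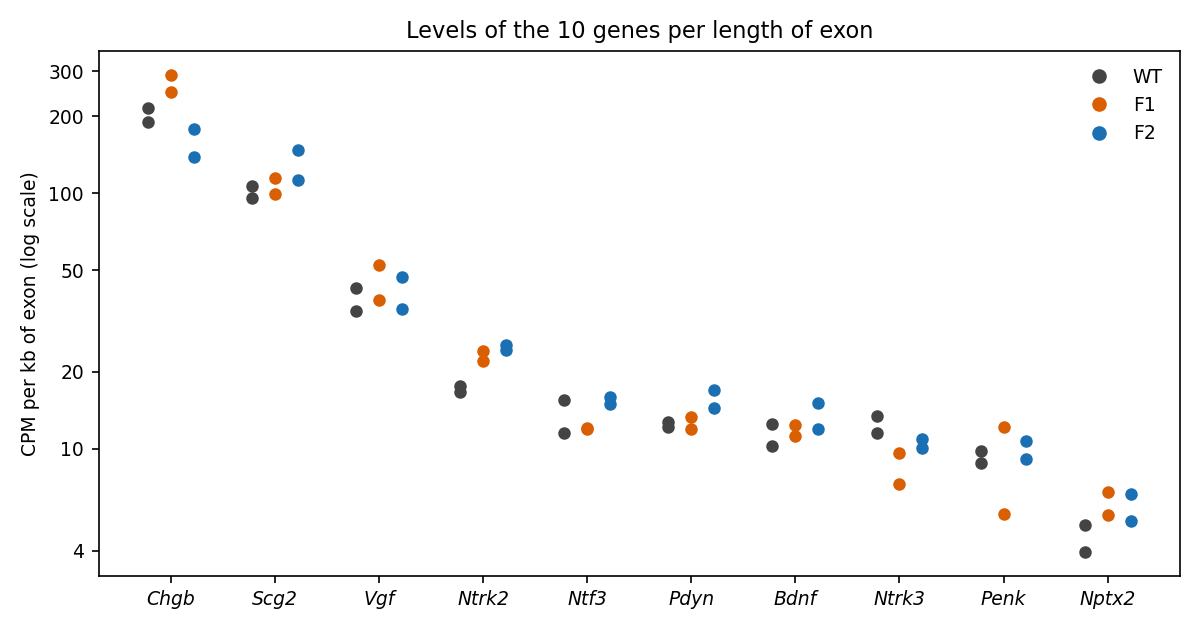
Level of each gene in CPM per kb of merged exon on a log axis, 1 point per library, coloured by group. Chgb, Scg2 and Vgf lie above the other 7 genes, and Nptx2 has the lowest mean at 5.53.

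Ntrk2, Ntrk3 and Chgb were the members that passed the test in at least 1 comparison. In F1, 2 of 10 were called against WT. Of these, 1 rose (Ntrk2), where 3.77% of all tested genes rose, and 1 fell (Ntrk3), where 8.54% of all tested genes fell. In F2, 1 rose (Ntrk2) and 0 fell, where 3.87% of all tested genes rose and 8.10% fell. These counts do not set the 10 genes apart from the background. At an unadjusted p under 0.05 edgeR's exact test gave 4 of 10 in F1 (32.5% of all tested genes), 5 of 10 in F2 (32.4%) and 5 of 10 between F2 and F1 (8.64%). F1 and F2 are compared with the same WT libraries, so their values are given side by side and are not separate evidence. Ntrk2 was called in both generations in the same direction, as were 7.67% of all tested genes. Between F2 and F1, 1 gene, Chgb, was lower in F2 and 0 were higher, where 0.436% of all tested genes were lower and 0.304% higher. Each of these counts of members rests on a single gene per direction.

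The log2 fold change was positive for 7 of the 10 genes and negative for 3 in F1. In F2 it was positive for 8 and negative for 2, and for F2 against F1 positive for 7 and negative for 3. Their median log2 fold change was 0.07 in F1, 0.22 in F2 and 0.18 for F2 against F1, beside 0.01, 0.00 and 0.00 over all tested genes. In F1, 3 genes had both libraries above both WT libraries (29.8% of all tested genes did) and 1 had both below (30.6%). In F2, 4 genes lay above WT (31.0% of all tested genes) and 2 below (32.0%). Between F2 and F1, 4 genes lay above (19.4% of all tested genes) and 1 below (19.7%).

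**Figure D2:**
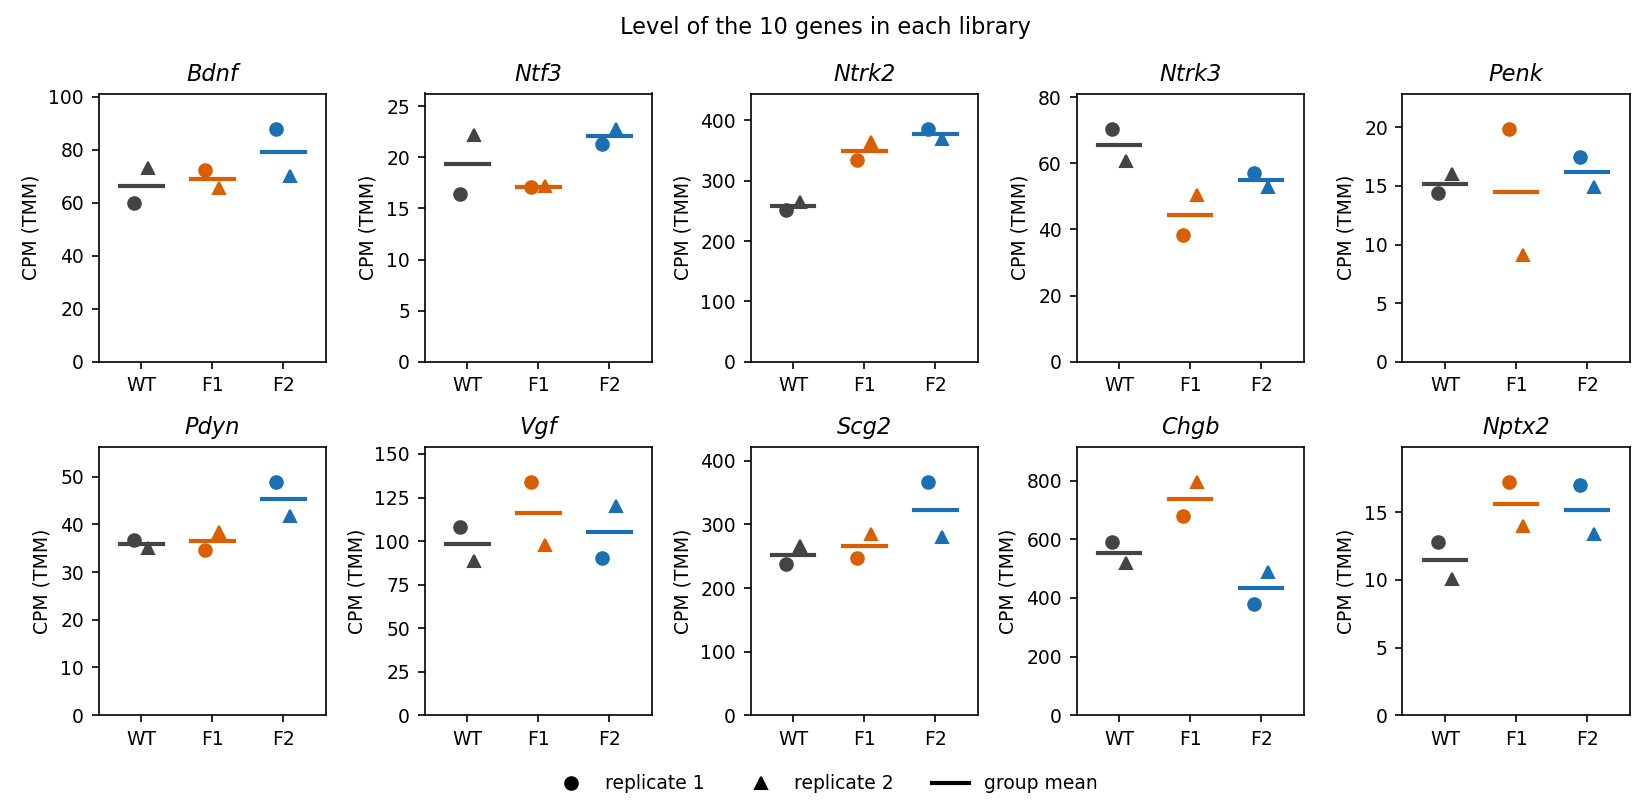
CPM of the 10 genes in the 6 libraries, 1 panel per gene with its own axis starting at 0, circles for replicate 1, triangles for replicate 2 and a line at the mean of each group. Ntrk2 lies higher in F1 and F2 than in WT, Ntrk3 lies lowest in F1, and Chgb is highest in F1 and lowest in F2.

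Ntrk2, which encodes the BDNF receptor TrkB, lies on chromosome 13 (mm9, chr13:58907957-59235331, plus strand). Its level was 251 and 265 CPM in the WT libraries, 334 and 363 in F1, and 386 and 369 in F2. All F1 and F2 libraries were above both WT libraries. The means were 258 ± 9.56 CPM in WT, 349 ± 20.4 in F1 and 377 ± 12.1 in F2 (SD, n = 2). Ntrk2 rose 1.35-fold in F1 (95% interval 1.16 to 1.58, edgeR exact test, adjusted p = 0.00206) and 1.46-fold in F2 (1.25 to 1.71, adjusted p = 5.56e-05). F2 and F1 differed by 0.11 on the log2 scale (SE 0.12, edgeR adjusted p = 0.94). The gene stands in a list that the study drew from these libraries, of genes changed in both F1 and F2, so its direction is not independent evidence. Under edgeR's quasi-likelihood test the F1 call was lost (adjusted p = 0.0129) and the F2 call stayed. The F1 call was also lost without WT library 1, WT library 2 or F1 library 2 (edgeR exact test, adjusted p = 0.0599, 0.0142 and 0.0465), and the F2 call without WT library 1 or F2 library 1 (adjusted p = 0.0114 for each).

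Astrocytes carry truncated TrkB, and the counts pool all 5 annotated Ntrk2 transcripts. Beside the rise of Ntrk2, 7 of 7 astrocyte markers had higher means than WT in F1 and in F2. Of these, 1 was called in F1 (Aldh1l1) and 4 in F2 (Aldh1l1, Aldoc, Gfap and Slc1a2), all higher by edgeR's exact test. Of all tested genes 3.77% were called higher in F1 and 3.87% in F2. Gfap, the astrocyte filament protein, was 0.65 higher on the log2 scale in F1 (edgeR adjusted p = 0.0109) and rose by 0.75 in F2 (edgeR adjusted p = 0.00311). Slc1a2, the glial glutamate transporter, was 0.37 higher in F1 (edgeR adjusted p = 0.0382) and rose by 0.56 in F2 (edgeR adjusted p = 0.000659). The study's own list holds Slc1a2 as well. The part of astrocytes in the result was not tested.

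Ntrk3, which encodes the NT-3 receptor TrkC, lies on chromosome 7 (chr7:85337248-85723294, minus strand). Its level was 70.5 and 60.6 CPM in WT, 38.3 and 50.4 in F1, and 57.2 and 52.7 in F2. Both F1 libraries were the lowest of the 6, and the F2 libraries lay between F1 and WT. The means were 65.6 ± 6.99, 44.4 ± 8.53 and 54.9 ± 3.15 CPM (SD, n = 2). Ntrk3 fell to 0.677 of the WT level in F1 (95% interval 0.554 to 0.826, edgeR exact test, adjusted p = 0.00173). In F2 it stood at 0.838 of WT (0.686 to 1.02, edgeR adjusted p = 0.219), and F2 against F1 gave a log2 difference of 0.31 (SE 0.15, edgeR adjusted p = 0.514). A difference between the generations was therefore not shown. The F1 call was lost under edgeR's quasi-likelihood test (adjusted p = 0.0173), without WT library 1 (log2 -0.45, adjusted p = 0.0781) and without F1 library 1 (log2 -0.37, adjusted p = 0.0754).

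In F1 the 2 receptors moved in opposite directions. The ratio of Ntrk2 to Ntrk3 counts within a library, chosen after the values were seen and given with no test, was 3.56 and 4.37 in WT, 8.72 and 7.21 in F1, and 6.75 and 6.997 in F2. Every F1 and F2 library exceeded both WT libraries, and this ratio does not depend on library scaling. The genes most like Ntrk2 over the 6 libraries were Diras2, Insig1 and Mid1ip1, with root mean square differences of centred log2 CPM of 0.0411, 0.0417 and 0.0429, where Ntrk2 itself varied by 0.24. They were picked from 8033 genes with a mean of at least 20 CPM. Those most like Ntrk3 were Phka1 (0.0734), Chd7 (0.0886) and Cacna1c (0.0910), where Ntrk3 varied by 0.268.

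**Figure D3:**
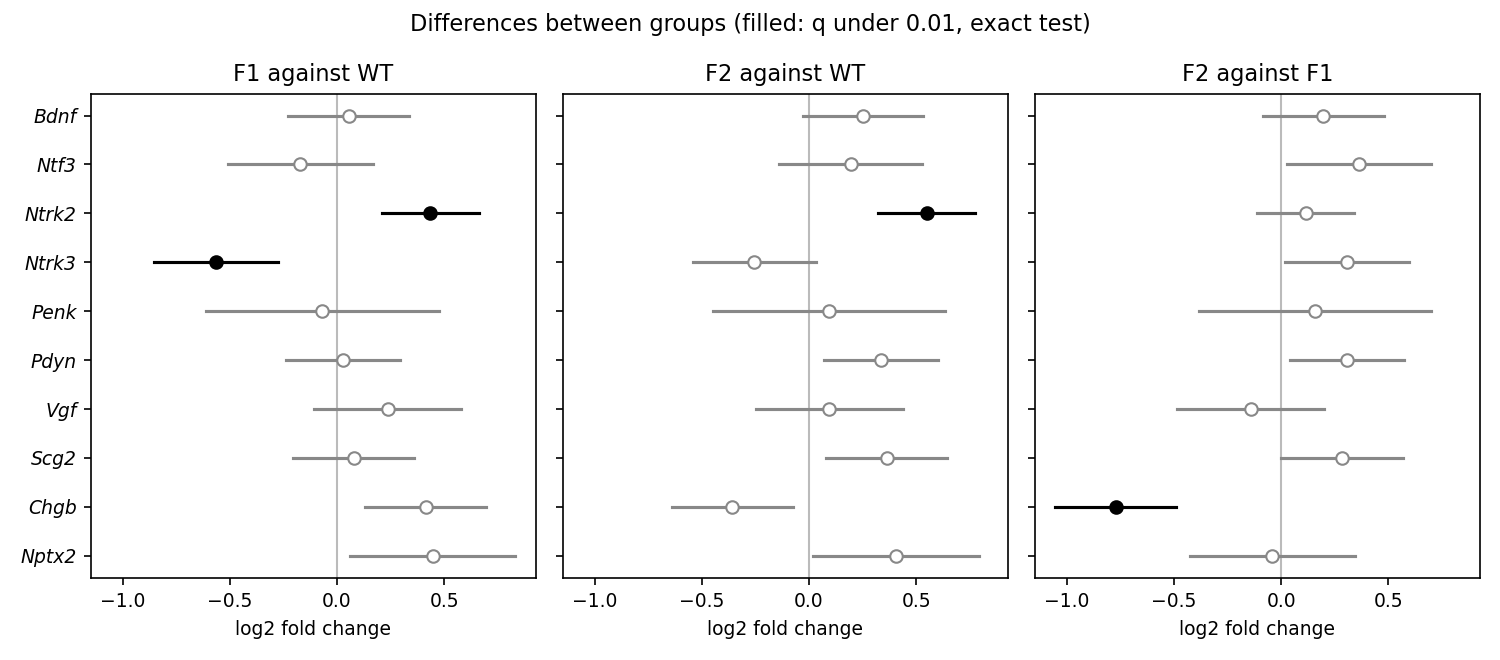
Log2 fold changes of the 10 genes with 95% intervals for F1 against WT, F2 against WT and F2 against F1, filled symbols where the adjusted p is under 0.01. Ntrk2 is filled for F1 and F2 against WT, Ntrk3 for F1, and Chgb for F2 against F1 at -0.77.

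The ligands of these receptors did not pass the test. Bdnf (chr2:109514857-109567204, plus strand) encodes brain-derived neurotrophic factor. Its level was 59.9 and 73.0 CPM in WT, 72.5 and 65.4 in F1, and 88.0 and 70.1 in F2, and the 3 groups overlapped. The fold change was 1.04 in F1 (95% interval 0.854 to 1.26, edgeR adjusted p = 0.846) and 1.19 in F2 (0.979 to 1.45, edgeR adjusted p = 0.216). Ntf3 (chr6:126051431-126116762, minus strand), which encodes NT-3 and is a marker of dentate granule cells, stood at 16.5 and 22.2 CPM in WT, 17.1 and 17.2 in F1, and 21.3 and 22.8 in F2. Both F2 libraries exceeded both F1 libraries, while WT library 1 was the lowest of the 6 and WT library 2 lay between the F2 libraries. Its fold change was 0.889 in F1 (0.704 to 1.12, edgeR adjusted p = 0.531), 1.14 in F2 (0.907 to 1.44, edgeR adjusted p = 0.473) and 1.29 for F2 against F1 (1.02 to 1.63, edgeR adjusted p = 0.497).

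Another neurotrophin and the shared receptor were scarce. Ntf5, which encodes NT-4, averaged 0.402 CPM in WT, 0.442 in F1 and 0.335 in F2. Ngfr, the low-affinity receptor p75 that all neurotrophins share, averaged 0.702 CPM in WT, 1.18 in F1 and 1.23 in F2 (edgeR adjusted p = 0.14 and 0.111). Neither Ntf5 nor Ngfr was called in any comparison by edgeR's exact test.

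Further genes of the neurotrophin pathway, from pro-neurotrophin processing and sortilin receptors to the adaptors downstream of Trk, formed a list of 37, of which 35 were tested. In F1, 2 rose (Gab2 and Lingo1) and 2 fell (Plcg1 and Shc2). In F2, 4 rose (Crkl, Gab2, Ptpn11 and Sorcs1) and 3 fell (Pcsk7, Plcg1 and Shc2). Of all tested genes 3.77% rose and 8.54% fell in F1, and 3.87% rose and 8.10% fell in F2. The median log2 fold change of the 35 listed genes tested was 0.12 in F1 and 0.18 in F2. Between F2 and F1, edgeR's exact test called 0 of 35, and 4 had an unadjusted p under 0.05, where 8.64% of all tested genes did. The counts of called genes rest in part on single libraries: without WT library 1 they were 1 in F1 and 1 in F2, without F1 library 2 the F1 count was 1, and without F2 library 1 the F2 count was 1.

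Among these, Plcg1, Gab2 and Shc2 were called against WT in both generations. Plcg1, phospholipase C gamma, which docks on activated Trk receptors, stood at 129 and 88.9 CPM in WT, 70.3 and 68.9 in F1, and 65.1 and 68.7 in F2. The WT libraries were themselves far apart. Plcg1 fell by 0.65 on the log2 scale in F1 (edgeR adjusted p = 0.000506) and by 0.71 in F2 (edgeR adjusted p = 0.000138). Both calls were lost without WT library 1 (log2 -0.35 and -0.41), the F1 call without F1 library 2 and the F2 call without F2 library 1, and the study's own list holds Plcg1 as well as Ptpn11. Ptpn11 was called here in F2 alone of the comparisons with WT. Gab2, a docking adaptor of receptor tyrosine kinases, was at 9.20 and 9.99 CPM in WT, 14.4 and 14.3 in F1, and 14.9 and 15.6 in F2. It rose by 0.58 in F1 (edgeR adjusted p = 0.00548) and 0.67 in F2 (edgeR adjusted p = 0.00104). Shc2, an SH2-domain adaptor of neurons, was at 89.3 and 88.7 CPM in WT, 67.1 and 69.8 in F1, and 70.0 and 64.9 in F2, and fell by 0.38 and 0.40 (edgeR adjusted p = 0.00874 and 0.00527). For Plcg1, Gab2 and Shc2 neither WT library overlapped with the F1 and F2 libraries, which was a condition for naming them. Under edgeR's quasi-likelihood test all 3 lost the F1 call and Shc2 also the F2 call. Of 9 alternative settings with all 6 libraries, the Shc2 call held in 3 for F1 and 5 for F2. The Plcg1 call held in 7 and 8 of them, and the Gab2 call in 6 and 8. Leaving out any 1 of the 6 libraries ended the F1 calls of Gab2 and Shc2, and leaving out any WT or F2 library ended their F2 calls.

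The opioid precursors did not pass the test. Penk (chr4:4060678-4065966, minus strand), which encodes proenkephalin, was at 14.4 and 16.0 CPM in WT, 19.9 and 9.09 in F1, and 17.5 and 14.9 in F2. The F1 libraries were the highest and the lowest of the 6. The log2 difference was -0.07 in F1 (SE 0.28, edgeR adjusted p = 0.911) and 0.09 in F2 (SE 0.28, edgeR adjusted p = 0.873). Without F1 library 1, Penk was lower in F1 (log2 -0.73) and passed the test, and without F1 library 2 the log2 difference was 0.40. Of the Penk exon bases, 14.3% overlap A830012C17Rik on the other strand, and the strand setting of the counting is not given in the sources used here. Pdyn (chr2:129512301-129525580, minus strand), which encodes prodynorphin, the source of the kappa ligand dynorphin, was at 36.7 and 35.0 CPM in WT, 34.7 and 38.5 in F1, and 49.0 and 41.7 in F2. Both F2 libraries were the highest of the 6. The fold change in F2 was 1.26 (95% interval 1.05 to 1.52, edgeR adjusted p = 0.0603), and in F1 it was 1.02 (0.848 to 1.23, edgeR adjusted p = 0.929).

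The delta, kappa and mu opioid receptors were low in this tissue. Oprd1, the delta receptor to which enkephalins bind, averaged 4.26 CPM in WT, 4.83 in F1 and 5.68 in F2 (edgeR adjusted p = 0.643 and 0.193). The kappa receptor Oprk1 averaged 0.710, 1.03 and 1.06 CPM and the mu receptor Oprm1 0.346, 0.376 and 0.447, and neither passed edgeR's exact test in any comparison. Oprl1, the receptor of the related peptide nociceptin, was far higher, at a mean of 12.5 CPM per kb of exon over the 6 libraries. It stood at 49.98 and 42.1 CPM in WT, 50.5 and 47.1 in F1, and 47.6 and 45.0 in F2 (edgeR adjusted p = 0.718 and 0.987), and the groups overlapped. It was named after its values were seen.

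The granins are acidic proteins of dense-core granules, and the promoters of Scg2 and Chgb are shown because each holds a complete cAMP response element, the letters TGACGTCA, close to its start site. The sequences are from RefSeq on GRCm38.p6, 300 bases from 250 before to 50 after the start site, written 5′ to 3′ on the strand of the gene, with the element in capitals. The Scg2 window is chr1:79439977-79440276 (minus strand), with the element beginning at -68, and the Chgb window is chr2:132781392-132781691 (plus strand), with the element beginning at -72.
Scg2: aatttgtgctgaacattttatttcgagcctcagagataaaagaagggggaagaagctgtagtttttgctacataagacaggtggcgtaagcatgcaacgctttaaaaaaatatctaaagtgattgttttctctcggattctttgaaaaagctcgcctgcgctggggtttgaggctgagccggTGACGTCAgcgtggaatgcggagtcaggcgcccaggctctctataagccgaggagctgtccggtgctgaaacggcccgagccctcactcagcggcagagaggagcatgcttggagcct
Chgb: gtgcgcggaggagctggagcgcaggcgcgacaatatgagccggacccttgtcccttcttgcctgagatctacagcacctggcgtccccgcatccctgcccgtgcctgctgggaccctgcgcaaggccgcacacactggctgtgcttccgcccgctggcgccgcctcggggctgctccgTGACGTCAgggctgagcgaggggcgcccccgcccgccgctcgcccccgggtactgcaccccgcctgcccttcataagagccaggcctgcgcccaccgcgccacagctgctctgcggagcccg
Of the 10 genes, 6 matched the promoter table, with 14 start sites. The palindrome TGACGTCA was found at these 2 sites and at none of the windows of Bdnf, Pdyn, Ntf3 or Ntrk2, and 1.79% of all 32851 windows of this length hold it. The shorter letters TGACG, on either strand and counting those inside the complete element, are in 20.8% of all windows and in 1 of the Bdnf windows, at -35. In that Bdnf window they stand within the longer letters CACGTCA, which 2.01% of all windows hold on either strand. A match is a description of the letters and not evidence of binding. Ntrk3, Penk, Vgf and Nptx2 had no entry.

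Chgb and Scg2, whose windows share this element, were ordered differently over the groups. Chgb (chr2:132607014-132620815, plus strand), which encodes chromogranin B, stood at 589 and 519.6 CPM in WT, 681 and 796 in F1, and 378 and 487 in F2. Both F1 libraries were the highest of the 6 and both F2 libraries the lowest. The means were 554 ± 49.4, 739 ± 81.7 and 433 ± 77.2 CPM (SD, n = 2). In F2 Chgb was at 0.586 of its F1 level (95% interval 0.482 to 0.712, edgeR exact test, adjusted p = 3.69e-05). Against WT it did not pass the test in either generation, with a fold change of 1.33 in F1 (1.10 to 1.62, edgeR adjusted p = 0.0247) and 0.780 in F2 (0.642 to 0.949, edgeR adjusted p = 0.0587). The difference between F2 and F1 was not called under edgeR's quasi-likelihood test (adjusted p = 0.0484) or without F2 library 1 (log2 -0.60, edgeR exact test, adjusted p = 0.0911). Chga, which encodes chromogranin A, differed between F2 and F1 by a log2 value of -0.38 (SE 0.18, edgeR adjusted p = 0.469).

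Scg2 (chr1:79431244-79436665, minus strand), which encodes secretogranin II, the precursor of secretoneurin, was at 238 and 266 CPM in WT, 246 and 285 in F1, and 367 and 279.8 in F2. Both F2 libraries exceeded both WT libraries, with F2 library 1 standing apart at the top. The fold change was 1.06 in F1 (95% interval 0.867 to 1.28, edgeR adjusted p = 0.766) and 1.29 in F2 (1.06 to 1.56, edgeR adjusted p = 0.0565), and without F2 library 2 the F2 difference passed the test (log2 0.55, edgeR adjusted p = 0.00918). The ratio of Chgb to Scg2 counts within a library, chosen after the values were seen, was 2.48 and 1.96 in WT, 2.76 and 2.80 in F1, and 1.03 and 1.74 in F2. It was highest in both F1 libraries and lowest in both F2 libraries.

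Vgf (chr5:137506165-137509221, plus strand), the neurotrophin-inducible granin-like precursor of TLQP peptides, was at 108 and 88.3 CPM in WT, 134 and 97.6 in F1, and 90.1 and 119.9 in F2. The groups overlapped, and the libraries of each group differed by more than the group means. The log2 difference was 0.24 in F1 (SE 0.17, edgeR adjusted p = 0.36) and 0.09 in F2 (SE 0.18, edgeR adjusted p = 0.764). Nptx2 (chr5:145306756-145318347, plus strand), a secreted pentraxin that clusters AMPA receptors at synapses, was at 12.8 and 10.1 CPM in WT, 17.3 and 14.0 in F1, and 17.0 and 13.4 in F2. All F1 and F2 libraries were above both WT libraries, by a margin that did not pass the test. The fold change was 1.36 in F1 (95% interval 1.04 to 1.78, edgeR adjusted p = 0.0915) and 1.32 in F2 (1.01 to 1.73, edgeR adjusted p = 0.134).

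A second list of 35 genes held the other granins, prohormone convertases, vesicle release factors, further neuropeptides, opioid receptors and pentraxins, and all 35 were tested. In F1, 4 rose (Cadps2, Nptxr, Pcsk2 and Ptprn2) and 2 fell (Nmb and Scg5). In F2, 2 rose (Cadps2 and Nptxr) and 1 fell (Nmb). Again 3.77% of all tested genes rose and 8.54% fell in F1, and 3.87% rose and 8.10% fell in F2. Between F2 and F1 edgeR's exact test called 0, with 8 at an unadjusted p under 0.05, again beside 8.64% of all tested genes. The median log2 fold change of the 35 was 0.09 in F1 and 0.06 in F2. The study's own list holds Scg5, which was called here in F1 alone of the comparisons with WT. The F1 count was 2 without WT library 1, 1 without WT library 2 and 1 without F1 library 2, and the F2 count was 1 without WT library 2 or F2 library 1.

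Nptxr, the neuronal pentraxin receptor and partner of the Nptx2 protein, was at 15.8 and 13.2 CPM in WT, 20.2 and 36.1 in F1, and 29.1 and 28.5 in F2. Of its exon bases 81.5% are shared with Npcd, and intersection-strict counting drops reads that lie wholly within exons of both, so these counts come from a small part of the gene. It rose by 0.96 on the log2 scale in F1 (SE 0.22, edgeR adjusted p = 0.000387) and 0.99 in F2 (SE 0.22, edgeR adjusted p = 0.000256). Without F1 library 2 the F1 difference was 0.49 and was not called, and both calls were lost without WT library 2 and the F2 call without F2 library 1. Cadps2, which primes dense-core vesicles for release and is known for BDNF secretion, was at 45.9 and 35.3 CPM in WT, 60.1 and 58.6 in F1, and 59.9 and 61.9 in F2. It rose by 0.55 in F1 (edgeR adjusted p = 0.0011) and 0.58 in F2 (edgeR adjusted p = 0.000447). Both Cadps2 calls were lost without WT library 2, the F1 call without F1 library 1 and the F2 call without either F2 library. Nmb, which encodes the peptide neuromedin B, was at 9.29 and 8.06 CPM in WT, 4.92 and 5.02 in F1, and 3.74 and 4.34 in F2, falling by 0.81 and 1.10 (edgeR adjusted p = 0.00151 and 1.09e-05). Its F1 call was lost without WT library 1 or either F1 library, and its F2 call without F2 library 1. Of the Nmb exon bases 20.6% overlap Sec11a. For Nptxr, Cadps2 and Nmb the WT libraries did not overlap with any F1 or F2 library, again a condition for naming them. Under edgeR's quasi-likelihood test the F1 calls of Nptxr, Cadps2 and Nmb were lost, and in F2 Nmb alone of them was called.

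Since several of the 10 genes follow neuronal activity, 28 further activity-regulated genes were read in the same tests. In F1, 7 rose (Arc, Cyr61, Dusp6, Egr3, Ier2, Nr4a3 and Ptgs2) and 0 fell, with a median log2 fold change of 0.43. In F2, 1 rose (Egr3), with a median of 0.14. Between F2 and F1, 2 were lower in F2 (Arc and Nr4a3), with a median of -0.38. These 2 calls were not read with a library left out or under another test. Relative to the WT mean, the mean log2 level of the 28 genes was 0.63 in F1 library 1 and 0.087 in F1 library 2. In F2 libraries 1 and 2 it was 0.096 and 0.104. Of all tested genes 3.77% rose and 8.54% fell in F1, 3.87% rose in F2, and 0.436% were lower in F2 than in F1. The F1 count rests on single libraries: it was 1 without WT library 1, 2 without WT library 2, 1 without F1 library 1 and 14 without F1 library 2. It was 0 under edgeR's quasi-likelihood test.

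Arc, a synaptic immediate early gene, was at 50.2 and 33.5 CPM in WT, 115 and 59.8 in F1, and 40.5 and 41.0 in F2. It rose by 1.06 on the log2 scale in F1 (edgeR adjusted p = 0.00033) and was 1.10 lower in F2 than in F1 (edgeR adjusted p = 0.00188). Nr4a3, an orphan nuclear receptor, was at 65.2 and 68.3 CPM in WT, 99.9 and 86.0 in F1, and 56.6 and 60.6 in F2. It rose by 0.48 in F1 (edgeR adjusted p = 0.00132), and F2 against F1 gave -0.67 (edgeR adjusted p = 2.84e-05). Arc and Nr4a3, like Chgb, were highest in both F1 libraries. Egr3, an immediate early transcription factor, was at 9.55 and 9.50 CPM in WT, 13.8 and 21.6 in F1, and 24.2 and 19.5 in F2. It rose by 0.89 in F1 (edgeR adjusted p = 0.000559) and 1.20 in F2 (edgeR adjusted p = 1.21e-06). In F1 the Arc call was lost without WT library 2 or F1 library 1, the Nr4a3 call without either WT library or F1 library 1, and the Egr3 call without either WT library or F1 library 2. Among the 10 genes, those known for activity-dependent transcription did not pass the test in F1: Bdnf, Vgf, Scg2, Penk and Nptx2 had log2 differences of 0.05, 0.24, 0.08, -0.07 and 0.45. The part of neuronal activity in these results was not tested.

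**Figure D4:**
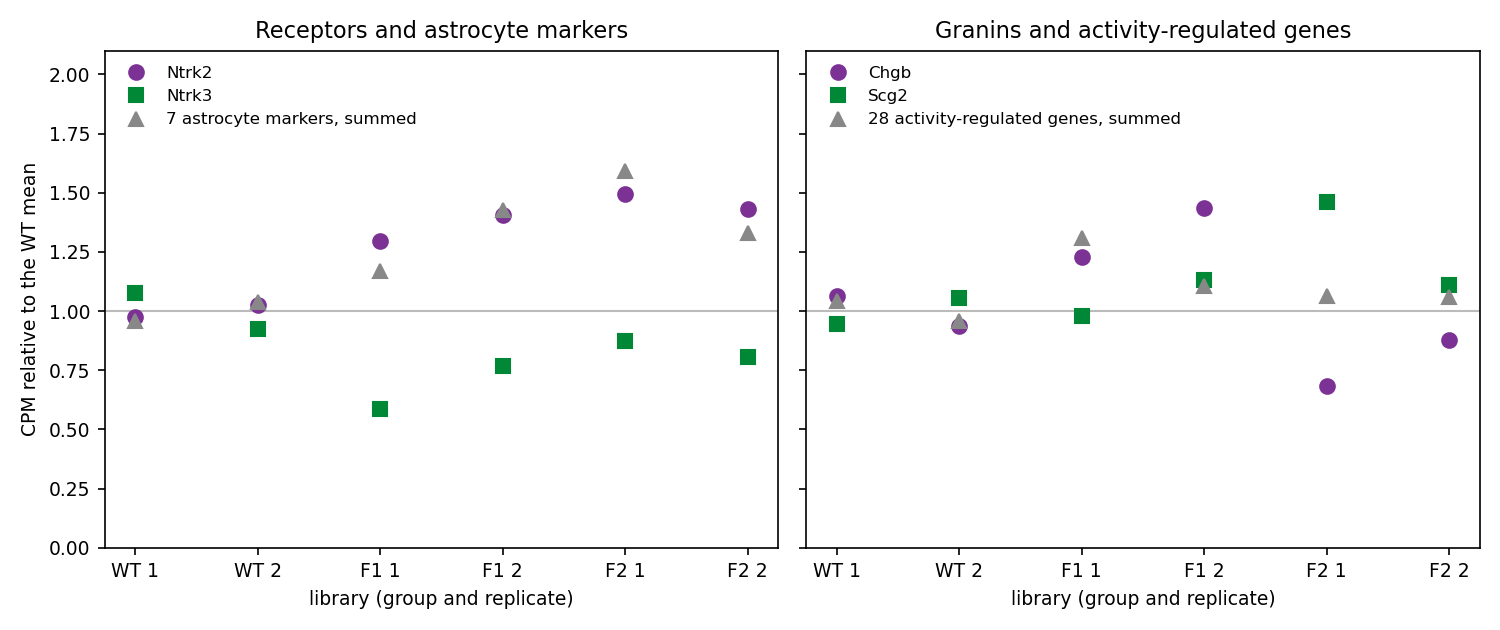
CPM in each of the 6 libraries relative to the mean of the WT libraries (line at 1), 1 symbol per library: left, Ntrk2, Ntrk3 and the summed 7 astrocyte markers, right, Chgb, Scg2 and the summed 28 activity-regulated genes. Ntrk2 and the astrocyte sum are above 1 and Ntrk3 below 1 in all 4 F1 and F2 libraries, and Chgb is above 1 in both F1 libraries and below 1 in both F2 libraries.

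Between F2 and F1, beside the difference of Chgb, the 7 oligodendrocyte markers had lower means in F2 and the 7 astrocyte markers higher means. By edgeR's exact test 0 of either list were called, and the libraries of F1 and F2 overlapped for all 7 oligodendrocyte markers and 5 of the 7 astrocyte markers. Against WT, 7 of 7 oligodendrocyte, 6 of 6 microglial and 5 of 5 endothelial markers had higher means in F1 and in F2, of which edgeR's exact test called 2, 0 and 0 in F1 and 1, 4 and 1 in F2. The 8 interneuron markers summed to 644 to 710 CPM in WT, 650 to 860 in F1 and 752 to 814 in F2. Of these 8, 1 was called in F1 and 3 in F2, all higher, Slc32a1 in both. Beside these marker calls, 3.77% of all tested genes were called higher in F1 and 3.87% in F2. The 9 markers of mossy cells and CA fields summed to 609 to 656 CPM, 643 to 689.8 and 603 to 639. Of these 9, 2 rose (Cpne4 and Pvrl3) and 1 fell (Csf2rb2) in F1, where 8.54% of all tested genes fell. In F2, 1 rose (Mpped1) and 2 fell (Csf2rb2 and Pvrl3), where 8.10% fell. Between F2 and F1, 1 (Pvrl3) was lower in F2, where 0.436% of all tested genes were. The log2 fold change of F2 against F1 was positive for 5 of the 9 and negative for 4, with a median of 0.13. Pvrl3, which encodes the adhesion protein nectin-3, was at 41.7 and 41.0 CPM in WT, 59.4 and 58.8 in F1, and 22.1 and 31.2 in F2. Like Chgb it was highest in both F1 libraries and lowest in both F2 libraries, with a log2 difference of -1.15 for F2 against F1 (edgeR adjusted p = 3.71e-10). The part of these markers in the results for the 10 genes was not tested.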

How the data were processed

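Polyadenylated RNA of the ventral dentate gyrus was measured in 6 RNA-Seq libraries, 2 per group, from animals of at least 3 litters. The authors mapped 50 bp single-end reads to mm9 and counted them per gene with HTSeq in intersection-strict mode. The submitters' processing notes name TopHat2 2.0.2 and Bowtie 1.0.0. The values are the deposited raw counts per gene symbol, not normalized. Reads that align to several places or reach outside annotated exons are not in them. The files' 5 summary rows, which name no gene, held 35.3% to 46.6% of the reads and were left out. Reads on no annotated feature made up 12.6% to 14.2% of the reads in WT, 9.18% to 9.84% in F1 and 10.2% to 11.6% in F2.

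Groups came from the labels. Genes with too few counts were removed by filterByExpr, libraries were scaled by TMM, and groups were compared by the exactTest function of edgeR 4.0.16 (R 4.3.3). Common and then tagwise dispersion were estimated over all 6 libraries, and q under 0.01 was the threshold. The study used edgeR with tagwise dispersion, and which of its tests is not given in the sources used here. At the common dispersion, libraries within a group vary by 10.6% (biological coefficient of variation). Counting error was small beside this, between 0.638% and 0.994% for Chgb and between 4.07% and 5.97% for Penk, so the number of libraries limits the precision. Standard errors follow from mean counts and tagwise dispersion by the delta method, and intervals are 95%. Positions and exon lengths are from GENCODE M1 on mm9. The procedure was tested on simulated data. Plots were made with matplotlib 3.10.9 under Python 3.11.15.

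The 10 genes and all lists were chosen with earlier results of these data known. Beside the 10, the text names other neurotrophin genes and the opioid receptors, and, of the 3 lists on neurotrophin signalling, peptide secretion and neuronal activity, the genes called in both generations in the same direction with no overlap with WT, and those called between F2 and F1. It also names the 3 genes most like Ntrk2 and Ntrk3. Other listed genes and markers were named after their values were seen. Alternatives were DESeq2 1.42.0, the quasi-likelihood test, a block on replicate number, other scalings, no filter, dispersion from the groups compared, q under 0.05 and omission of every library in turn. A block with the F2 numbers crossed was added after seeing the data. Equal replicate numbers do not mark shared animals in the labels, and libraries of equal number did not deviate together. A few listed genes are left unnamed, though they remain in every count given for their list. The bisulfite sequencing samples were not analysed here.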

Additional observations from a re-analysis of the deposited data

Results flagged for a closer look

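Chgb was singled out because the effect differed between the generations by a direct test. Its level was 554 ± 49.4 CPM in WT, 739 ± 81.7 in F1 and 433 ± 77.2 in F2 (SD, n = 2), and F2 against F1 gave a log2 difference of -0.77 (edgeR exact test, adjusted p = 3.69e-05). The libraries of F1 and F2 lay on opposite sides of both WT libraries. Without each library in turn the difference ranged from -0.97 to -0.60, and it was not called without F2 library 1.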

How the results depend on the processing

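Of 450 recomputed log2 fold changes of the 10 genes, 415 kept their direction and their side of the threshold, 17 lost a call, 2 gained one and 16 changed sign, and all 16 sign changes were of values that were not called and came with a library left out. With DESeq2, RLE scaling, library totals without TMM, no low-count filter or dispersion from the groups compared, the 10 genes kept every call (Ntrk2 and Ntrk3 in F1, Ntrk2 in F2, Chgb between F2 and F1). For the other named genes, 327 of 416 values kept direction and side of the threshold, 79 lost a call and 10 changed sign. Where a cause is not named below, the cause was not tested.

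With edgeR's quasi-likelihood test and no replicate block, 0 of the 10 genes were called in F1 and 0 between F2 and F1, with 4 and 4 at an unadjusted p under 0.05 (33.3% and 9.01% of all tested genes). All genes called numbered 1030 in F1, 997 in F2 and 2 between F2 and F1. The neurotrophin list then had 1 call in F1 and 3 in F2, the peptide list 0 and 1, and the activity list 0 in F1.

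The replicate numbers did not pair the libraries: the correlation of deviations of equal-numbered libraries was -0.01 for WT and F1, -0.09 for WT and F2 and -0.23 for F1 and F2. With the replicate block, the quasi-likelihood test called 0 of the 10 genes in F1, 0 in F2 and 0 between F2 and F1, with 4, 5 and 3 at an unadjusted p under 0.05 (29.5%, 29.4% and 7.31% of all tested genes). It called 848, 758 and 9 of all genes, 1 and 1 of the neurotrophin list, 0 and 1 of the peptide list, and 1 of the activity list in F1. The likelihood-ratio test with the block called 0 of the 10 genes in F1 (4 at an unadjusted p under 0.05, with 31.7% of all tested genes) and 3 of the peptide list in F1. Arc in F2, which was not called, changed sign under both block fits, to 0.0091 and 0.011. With the F2 numbers crossed in the block, 2931 genes were called in F1, 3037 in F2 and 300 between F2 and F1, and Arc in F2 was at 0.0091.

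DESeq2 called 4 of the activity list in F1. Without the low-count filter the neurotrophin list had 4 calls in F2. Dispersion from the groups compared gave 2 calls of the neurotrophin list in F1 and 2 of the activity list in F2. At a threshold of 0.05, all genes called rose to 3623, 3602 and 230, the neurotrophin list to 11 in F1 and 11 in F2, and the peptide list to 6 in F2.

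Each library was also left out in turn, and a group left with 1 library was assumed to vary like the others. The count of the 10 genes then ranged from 0 to 2 in F1, 0 to 2 in F2 and 0 to 1 between F2 and F1, and the count of all genes from 988 to 2043, 703 to 2585 and 52 to 223. The neurotrophin list ranged from 1 to 5 in F1 and 1 to 8 in F2, the peptide list from 1 to 8 and 1 to 4, and the activity list from 1 to 14 and 1 to 2. Without WT library 1, 0 of the 10 genes were called in F1 and 0 in F2 (5 and 3 at an unadjusted p under 0.05, with 24.4% and 22.7% of all tested genes), and without F2 library 1, 0 in F2 and 0 between F2 and F1 (1 and 1 at an unadjusted p under 0.05, with 19.8% and 4.09%).

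Differences that were not called changed sign when a library was left out. In F1 these were Bdnf (-0.080 to 0.21), Ntf3 (-0.37 to 0.068), Penk (-0.73 to 0.40), Pdyn (-0.042 to 0.11), Scg2 (-0.022 to 0.19), Ntf5 (-0.16 to 0.40), Oprk1 (-0.27 to 1.07) and Oprm1 (-0.28 to 0.68). In F2 these were Ntf3 (-0.0015 to 0.43), Penk (-0.024 to 0.21), Vgf (-0.12 to 0.29), Oprk1 (-0.24 to 1.10), Oprm1 (-0.028 to 0.92) and Arc (-0.29 to 0.29). Between F2 and F1 these were Penk (-0.30 to 0.83), Vgf (-0.36 to 0.10) and Nptx2 (-0.22 to 0.12).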
